A study of Mus musculus with 14 samples.

Results

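V2a interneurons of the mouse embryonic spinal cord were compared with V1 and V3 interneurons, each represented by a single sorted library. A gene was called V2a-enriched when its signal in the V2a library was at least 2-fold above both other libraries on the log2(signal + 1) scale and at least 10, and V2a-depleted when it was at least 2-fold below both and both others reached 10. Of 23523 gene entries, 13869 reached a signal of 10 in at least 1 of the 3 libraries. Among these, 163 entries were enriched (1.18%) and 147 were depleted (1.06%). With 1 library for each cell type there is no replicate check, so these counts describe 3 libraries and no test was made.

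All 3 interneuron libraries came from E12.5 (embryonic stage) spinal cords of wild-type background, dissociated with papain and sorted by fluorescence for tdTomato. The label was switched on by a Cre driver through Rosa26:LSL:tdTomato, with a V2a driver for the V2a library, En1:cre for V1 and Sim1:cre for V3. Such a reporter stays on after the driver gene is silenced, so it marks cells by history as well as by current expression. The series also holds 6 wild-type motoneuron libraries of the same age, sorted by Hb9::gfp, 2 Hb9::gfp motoneuron libraries labelled 218DKO (a miR-218 knockout), and 2 libraries from stem cells (mES) after 4 days of differentiation, 1 of motoneuron progenitors sorted for Olig2:cre;Rosa26:LSL:tdTomato and 1 of unsorted neuronal progenitors. The labels do not say how many embryos went into a library.

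V2a cells are excitatory interneurons that arise from the p2 progenitor domain of the ventral cord beside the motoneuron domain, and many project to neurons of the same side. The p2 domain splits through Notch signalling into V2a cells and inhibitory V2b cells. V2a identity depends among others on the LIM homeodomain factor Lhx3, which motoneurons also use in combination with Isl1. V1 cells are inhibitory and express En1, whereas V3 cells are excitatory and express Sim1.

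The deposited value is a signal scaled for transcript length and between libraries, and it is not a read count. From the smallest values, the V1, V2a and V3 libraries were estimated at 16.3 M, 17.5 M and 16.5 M reads. For a transcript 2000 bases long, a signal of 1.69 in V1, 1.63 in V2a or 1.73 in V3 was worth 3 reads, and values below this carry little information. The driver genes of the V1 and V3 libraries matched the labels. En1 was at 851 in V1 and 7.23 in V2a, and Sim1 was at 808 in V3 and 3.25 in V2a. In addition, Sox14, Shox2 and Lhx3, which mark V2a cells, lay at 2190.1, 3975 and 3293 in the V2a library and below 10 in the other 2.

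The promoters of the leading V2a genes, and of the pair of cholinergic genes described below, are shown because these genes were high together in the V2a library. Each covers 250 bases before to 50 after a transcription start (RefSeq, GRCm38.p6), read 5′ to 3′ on the gene's strand, which is the minus strand in every case. Capitals mark TAAT or its reverse complement ATTA, the core that many homeodomain proteins bind.
Shox2, chr3:66981722-66982021: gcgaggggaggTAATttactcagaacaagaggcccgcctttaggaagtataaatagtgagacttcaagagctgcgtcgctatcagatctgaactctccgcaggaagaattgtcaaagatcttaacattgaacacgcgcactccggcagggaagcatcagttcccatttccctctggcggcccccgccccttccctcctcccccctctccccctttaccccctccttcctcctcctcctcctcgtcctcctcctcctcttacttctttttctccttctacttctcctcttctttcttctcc
Sox14, chr9:99876121-99876420: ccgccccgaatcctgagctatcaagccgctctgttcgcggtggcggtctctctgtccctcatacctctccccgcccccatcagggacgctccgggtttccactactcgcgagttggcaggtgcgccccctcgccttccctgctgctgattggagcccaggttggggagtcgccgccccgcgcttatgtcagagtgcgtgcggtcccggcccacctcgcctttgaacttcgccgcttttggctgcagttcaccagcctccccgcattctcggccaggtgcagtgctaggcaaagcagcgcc
Lhx3, chr2:26206526-26206825: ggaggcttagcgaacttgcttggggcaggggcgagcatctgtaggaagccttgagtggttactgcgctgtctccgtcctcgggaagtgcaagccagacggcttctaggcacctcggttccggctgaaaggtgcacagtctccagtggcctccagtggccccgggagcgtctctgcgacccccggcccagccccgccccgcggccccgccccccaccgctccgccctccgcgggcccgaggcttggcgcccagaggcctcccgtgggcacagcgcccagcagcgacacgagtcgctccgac
Chat, chr14:32465860-32466159: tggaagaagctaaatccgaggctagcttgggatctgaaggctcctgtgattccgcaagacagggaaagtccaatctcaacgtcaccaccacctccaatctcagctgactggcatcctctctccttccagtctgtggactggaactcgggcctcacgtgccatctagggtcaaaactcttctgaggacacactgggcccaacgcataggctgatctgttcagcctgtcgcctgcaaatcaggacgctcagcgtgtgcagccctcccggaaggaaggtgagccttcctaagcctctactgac
Slc18a3, chr14:32464801-32465100: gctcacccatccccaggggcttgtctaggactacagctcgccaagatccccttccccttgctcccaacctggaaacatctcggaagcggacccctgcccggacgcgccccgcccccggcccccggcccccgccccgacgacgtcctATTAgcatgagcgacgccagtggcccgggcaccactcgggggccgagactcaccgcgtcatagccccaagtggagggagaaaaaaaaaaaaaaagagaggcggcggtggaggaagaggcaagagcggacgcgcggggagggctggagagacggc
TAAT or ATTA occurred 1 time in the Shox2 window and 1 time in the Slc18a3 window, and these letters were not in the other 3 windows. Over both strands, TAAT (that is, TAAT or ATTA) was present in 46.7% of the 122 promoters of V2a-enriched genes, in 53.9% of the 128 promoters of V2a-depleted genes and in 58.0% of all 32851 promoters. The palindrome TAATTA, which contains TAAT and ATTA, was present in 5.74%, 3.91% and 5.29% of the same sets. The sequences matched 100 of 162 enriched and 100 of 146 depleted gene symbols, and a match is a description of letters, not of a bound site. Lhx3 has 2 promoter entries, of which the one with the lower coordinate, further downstream on the minus strand, is shown.

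The genes with the largest difference were transcription factors. Shox2, a homeodomain factor of excitatory spinal interneurons (GRCm38 chromosome 3, 66971727 to 66981771, minus strand), had a signal of 6.37 in V1, 3975 in V2a and 7.93 in V3, so V2a was higher by 9.08 and 8.80 on the log2 scale. Lhx3 (chromosome 2, 26200212 to 26208289) stood at 9.20, 3293 and 8.86, with differences of 8.33 and 8.38. Sox14, an SRY-box factor of V2a cells (chromosome 9, 99874106 to 99876170), stood at 6.01, 2190.1 and 6.69, with differences of 8.29 and 8.16. In each of these genes the V1 and V3 libraries were low and close to each other, with 21.2 or fewer estimated reads against 4164 or more in V2a.

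The Nkx6 and Lhx families added further members. Nkx6-2, a homeodomain repressor of ventral progenitors, had a signal of 11.9 in V1, 1837 in V2a and 9.28 in V3. Nkx6-3, its less studied relative, had 1.51, 102 and 0.514, with estimated reads of 3.0, 210.2 and 1.0. Lhx4, the closest relative of Lhx3, was at 3.05 in V1, 2340.0 in V2a and 158 in V3, so V3 held an intermediate level that Lhx3 did not show. Sox21, another SRY-box factor, was at 25.6, 1182 and 68.2.

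**Figure D1:**
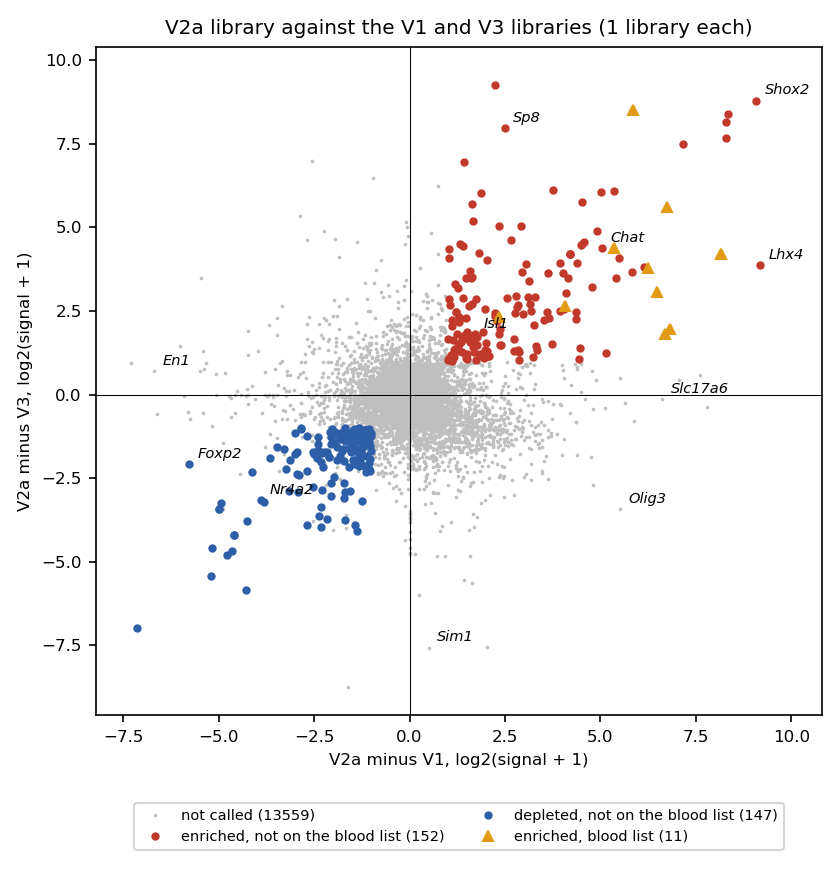
Each point is a gene entry with a signal of at least 10 in V1, V2a or V3, plotted by V2a minus V1 (horizontal) and V2a minus V3 (vertical) on the log2(signal + 1) scale. Red and blue points are the 152 enriched and 147 depleted entries outside the blood list, orange triangles are the 11 enriched blood entries, and grey points were not called. Shox2 lies far from both axes, whereas Slc17a6 lies near 0 on the vertical axis only.

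Of the 13 markers of V2a cells and the V2 lineage, 11 reached a signal of 10 and 6 were enriched, against 1.18% of all entries. Among the 6 were Shox2, Sox14, Lhx3, Lhx4 and Sox21. No marker of this list was depleted. The median differences over the 11 were 5.48 against V1 and 3.88 against V3, beside 0.01 and 0.00 over all 13869 entries. The other members did not separate V2a from both cell types. Bhlhe22, a basic helix-loop-helix factor, was at 1108 in V1, 995 in V2a and 139.6 in V3. Zfhx4, a zinc finger homeobox factor, was at 491, 1485 and 1575, and its relative Zfhx3 at 271, 761 and 427. Nfib, of the nuclear factor I family, was at 605, 63.6 and 58.5. Lmo1, a LIM-only cofactor, was at 70.6, 41.6 and 88.1. Vsx1, which appears when V2 cells are born, was at 0.316, 5.48 and 1.61, and Foxn4, which starts the V2 programme in progenitors, was at 1.52, 1.46 and 1.16, near the level of a few reads.

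V2b cells, the sister population, had a list of 6 markers (Gata2, Gata3, Tal1, Tal2, Sox1 and Lmo4). Of these, 5 reached 10 and 3 were V2a-enriched at low levels (Gata2, Gata3 and Tal1), where 1.18% of all entries were. V2a was the highest library in 4 of the 5 and lay between V1 and V3 in 1. Gata2 was at 3.48 in V1, 29.5 in V2a and 4.61 in V3. Gata3 was at 4.21, 40.2 and 6.80, and Tal1 at 3.75, 32.2 and 4.35. Each was at most 40.2 in V2a, where Shox2 and Lhx3 were at 3975 and 3293. Gata2 and Tal1 are also expressed in blood and vessel cells, whose markers were highest in the V2a library as well (globin sum 239, 16708 and 1248 and endothelial sum 18.5, 229 and 147 in V1, V2a and V3), and their part in these 3 genes was not tested. In a bulk sample, fewer cells of a type and less RNA per cell cannot be told apart.

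Several genes known from motoneurons were V2a-enriched. Of the 12 motoneuron markers, 9 reached 10 in an interneuron library and 5 were enriched (Nkx6-2, Chat, Lhx4, Slc18a3 and Isl1), where 1.18% of all entries were. Lhx4 is on the V2 lineage list as well. Nkx6-2 and Lhx4 were higher in V2a (1837 and 2340.0) than in any wild-type motoneuron library. Motoneurons held 79.6 to 148 of Nkx6-2 (median 96.7) and 415 to 673 of Lhx4 (median 593). Chat, the enzyme that makes acetylcholine, had a signal of 8.44 in V1, 309 in V2a and 13.9 in V3. In wild-type motoneurons it ranged from 339 to 499.8 with a median of 375, so the V2a value lay just below all 6, and the 218DKO libraries held 425 and 445. Slc18a3, the transporter that loads acetylcholine into vesicles, was at 20.1, 1202 and 92.9, against 1658 to 2720.3 (median 2105) in motoneurons. Both genes were thus within a factor of 2 of the lowest motoneuron library. Slc18a3 (chromosome 14, 32462438 to 32464850) lies inside Chat (32408203 to 32465989) on the same strand, its start 1139 bases from that of Chat, and it overlaps none of the annotated Chat exons in GENCODE M21.

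The third cholinergic gene did not follow. Slc5a7, the choline transporter, was at 4.79 in V1, 3.56 in V2a and 6.88 in V3, while motoneurons ranged from 589 to 943 (median 749). Mnx1, the gene for Hb9, was at 0.775, 7.46 and 3.16, against 2194 to 3995 (median 3218) in motoneurons. Isl1, the LIM homeodomain partner of Lhx3 in motoneurons, was called with 9.83, 34.4 and 9.11, but motoneurons ranged from 1593 to 2323 (median 1846). Isl2 was at 0.610, 7.63 and 4.97, Prph at 7.02, 74.1 and 163, and Aldh1a2 at 126, 39.3 and 31.5. The V2a library therefore held Chat and Slc18a3 at levels near those of motoneurons, and Slc5a7, Mnx1, Isl1 and Isl2 far below them.

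**Figure D2:**
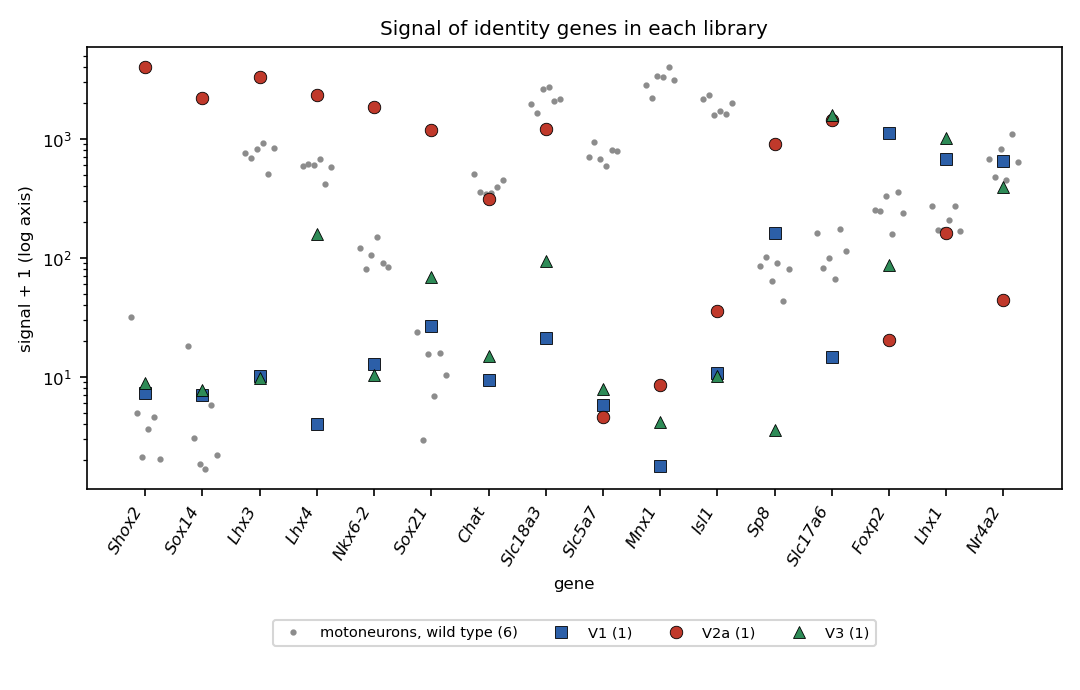
Signal plus 1 on a log axis for 16 genes in the V1, V2a and V3 libraries (1 each, coloured) and in 6 wild-type motoneuron libraries (grey points, in the order of their replicate numbers). V2a is highest for Shox2 to Sox21, lies next to motoneurons for Chat and Slc18a3, and lies with V1 and V3 for Slc5a7.

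The 163 enriched entries were next set beside motoneurons, whose values the rule did not use. In all 6 motoneuron libraries, 39 of the 163 (23.9%) were at least 2-fold above both V1 and V3 and at a signal of at least 10. The same held for 2.05% of all 13869 entries and for 9 of the 147 depleted entries (6.12%). Both comparisons share the V1 and V3 libraries, and the enriched entries were chosen partly for low values there. The 39 include Lhx3, Lhx4, Nkx6-2, Chat, Slc18a3 and Isl1. They also include Grin2c, an NMDA receptor subunit, at 3.92 in V1, 159 in V2a, 1.41 in V3 and 53.6 to 108 (median 79.0) in motoneurons. Cpne4, a calcium-dependent membrane-binding protein, was at 8.03, 206 and 2.83, with 32.7 to 56.8 (median 42.4) in motoneurons. Irx3, a homeodomain factor that sets the border between the p2 and motoneuron domains, was at 13.9, 255 and 29.9, with 129 to 284 (median 193) in motoneurons. Grin2c and Cpne4 were higher in V2a than in any motoneuron library, while Irx3 lay within their range.

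Further members of the 39, named after their values were seen, were Igfbp5, an insulin-like growth factor binding protein, at 404, 3365 and 225 with 1936 to 2869.9 (median 2213) in motoneurons, and Irx5 at 12.2, 164 and 32.6 with 145 to 354 (median 284). Nr2f2, a nuclear receptor, was at 108, 366 and 129, against 1356 to 2409.9 (median 1755) in motoneurons. Ecel1, a membrane peptidase, was at 129.9, 962 and 467, against 4121 to 6336 (median 5229). For Nr2f2 and Ecel1 the V2a value was between those of the other interneurons and motoneurons.

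Ignoring V1 and V3, the V2a signal lay above all 6 motoneuron libraries in 110 of the 163 enriched entries (67.5%), within their range in 35 and below all 6 in 18. Among all 13869 entries, it lay above in 31.8% and below in 29.2%. Since enriched entries were chosen for a high V2a value, a larger share above is built into the choice. Of the 147 depleted entries, V2a lay below all 6 motoneuron libraries in 95, within the range in 43 and above in 9. Depleted entries were chosen for a low V2a value, so a larger share below is likewise built in. In the motoneurons, 19 of the depleted entries (12.9%) were at least 2-fold below V1 and V3 in every library, against 0.865% of all entries, and none of the enriched entries was. This comparison uses the same V1 and V3 libraries as the calls. Depleted entries were chosen partly for high values there and enriched entries partly for low ones. Part of the gap between these shares is therefore built in, and how much was not tested.

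**Figure D3:**
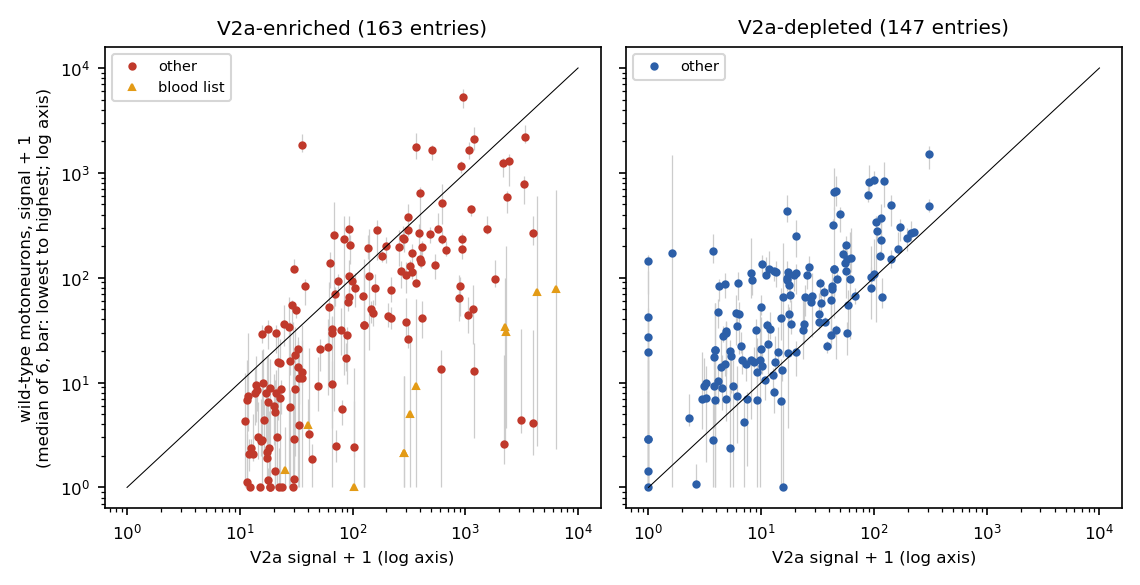
V2a signal plus 1 (horizontal) against the wild-type motoneuron signal plus 1 (vertical, median of 6 libraries, bars from lowest to highest), both on log axes, for the 163 enriched entries (left) and the 147 depleted entries (right). The line marks equal values. Most enriched entries lie below the line and most depleted entries above it, and the blood entries (triangles) have wide bars.

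Other enriched genes were higher in V2a than in every motoneuron library. Sp8, a zinc finger factor, was at 159 in V1, 900.2 in V2a and 2.57 in V3, and at 42.1 to 101 (median 82.2) in motoneurons. C1ql4, a secreted C1q-like protein of synapses, was at 50.4, 1060.4 and 191, and at 28.5 to 64.5 (median 43.1) in motoneurons. Calb2, the calcium buffer calretinin, was at 130.1, 613 and 0, with 0 to 19.4 (median 12.6) in motoneurons. Reln, the secreted glycoprotein reelin, was at 1593, 3983 and 174, with 204 to 389.7 (median 265). Vsnl1, a neuronal calcium sensor, was at 149, 936 and 36.8, with 149 to 231 (median 186). In each of these genes V1 was second and V3 lowest, except for C1ql4, where V3 was second. C1ql4, Calb2, Reln and Vsnl1 were named after their values were seen.

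Of 50 other neuronal transcription factors, 5 were enriched and 3 depleted, where 1.18% and 1.06% of all entries were. Besides Sox14 and Sox21, Onecut1 was at 119, 322 and 96.5, Tshz2 at 398, 1129.9 and 309, and Nr2f2 as above. Tshz3, a relative of Tshz2, was depleted at 474, 197 and 448. Nr4a2, an orphan nuclear receptor, was depleted at 645, 42.8 and 391.7, with 446 to 1105 (median 653) in motoneurons. Sox6 was depleted at 63.9, 24.7 and 51.5. The median difference over this list was 0.44 against V1 and -0.03 against V3, since its members differed in both directions, with 16 at least 2-fold above V1 and 10 at least 2-fold below.

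The LIM homeodomain genes split in direction. Lhx3, Lhx4 and Isl1 were enriched, whereas Lhx1, a factor of V1 and other ventral interneurons (chromosome 11, 84518284 to 84525535), was depleted at 669 in V1, 161 in V2a and 1006 in V3. Motoneurons held 167 to 273 of Lhx1 (median 188), next to the V2a value. Lhx1os, a noncoding transcript that starts 125 bases from Lhx1 on the opposite strand, was lower in V2a too, at 830.3, 169 and 1226. The annotated genes do not overlap, but the libraries do not mark strand.

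Of 17 V1 markers, V2a was at least 2-fold below V1 in 14 and at least 2-fold above it in 1 (Sp8, enriched). Against both V1 and V3, 2 were depleted (Foxp2 and Lhx1), where 1.06% of all entries were. Foxp2, a forkhead factor, was depleted against both cell types, at 1122 in V1, 19.5 in V2a and 85.3 in V3, with 157 to 354 (median 247) in motoneurons. Prdm8, which represses transcription with Bhlhe22, was shared with V1 like Bhlhe22, at 820.4, 990.3 and 70.4. Of 7 V3 markers none was called, because V2a lay between V1 and V3 in the 6 that reached 10. Olig3 was at 4.37, 243 and 2618, Uncx at 12.9, 42.0 and 2142, and Nkx2-2 at 2.75, 14.3 and 2858. Pou2f2 was at 357, 744 and 767, so for this gene V2a and V3 were close.

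In the vesicular glutamate transporter and in the inhibitory genes, V2a was close to V3. Slc17a6, the vesicular glutamate transporter of spinal excitatory neurons, was at 13.6 in V1, 1427 in V2a and 1581 in V3, and at 65.8 to 174 (median 106) in motoneurons. The difference between V2a and V3 was -0.15 on the log2 scale, against 6.61 between V2a and V1. The inhibitory genes were the reverse. Gad1, which makes GABA, was at 2058, 33.6 and 34.9, Slc32a1, the vesicular GABA and glycine transporter, at 1206, 44.9 and 46.3, and Slc6a5, the glycine transporter of inhibitory neurons, at 807, 17.9 and 26.6. None of the 8 excitatory genes (7 at 10 or more) and 8 inhibitory genes was called, since V2a and V3 were less than 2-fold apart in those at 10 or more. The median over the inhibitory list was -3.25 against V1 and -0.03 against V3. Over the 7 excitatory genes it was -0.37 against V1 and 0.00 against V3, and of these only Slc17a6 was at least 2-fold above V1.

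Receptors for glutamate gave 1 enriched and 3 depleted genes among 23 at 10 or more, where 1.18% and 1.06% of all entries were called. Grin2c was the enriched one (above). Grik1, a kainate receptor subunit, was at 140.5 in V1, 41.3 in V2a and 130.2 in V3. Grm2, a metabotropic receptor coupled to inhibition of adenylyl cyclase, was at 114, 56.5 and 185, just inside the threshold. Grm8, of the same receptor class, was at 10.7, 3.54 and 75.7. None of the 14 GABA and glycine receptor genes was called. Among 13 receptors for acetylcholine and amines, Chrna7, a nicotinic subunit, was depleted at 125, 57.1 and 207, and Chrm2, a muscarinic receptor, at 36.6, 3.73 and 15.3.

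Peptide, channel and vesicle release genes each gave a few calls. Of 20 neuropeptide genes at 10 or more, 1 was enriched and 2 were depleted. Grp, gastrin-releasing peptide, was enriched at 20.2, 61.9 and 3.86. Gal, the galanin precursor, was depleted at 64.6, 23.3 and 362, and Cbln4, a secreted cerebellin, at 189, 34.9 and 113. Of 39 potassium channel genes, Kcnip2, a partner of Kv4 channels, was enriched at 35.6, 143 and 55.7, and Kcnk1, a leak channel, was depleted at 73.4, 13.2 and 32.9. Of 30 sodium, calcium and HCN channel genes, only Cacng3, an auxiliary subunit of AMPA receptors, was called, at 38.5, 104 and 3.77. Of 36 vesicle release genes, only Doc2b, a calcium sensor of release, was called, as depleted at 59.6, 25.3 and 115. These lists thus held 1 to 3 calls each, beside 1.18% and 1.06% of all entries called enriched and depleted. In a list of 39 genes or fewer, 1 call is already a larger share than either.

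Guidance and adhesion genes differed by member. Of 50 guidance genes, Sema5a was enriched at 113 in V1, 338 in V2a and 98.9 in V3, and Unc5c, a netrin receptor, was depleted at 64.0, 15.9 and 36.5, with 340.1 to 615 (median 430.4) in motoneurons. Of 24 cadherins, 2 were enriched and 3 depleted, against 1.18% and 1.06% of all entries. Pcdh17 was enriched at 161, 397 and 159 and Cdh12 at 38.6, 91.3 and 35.1. Cdh3 was depleted at 78.8, 1.62 and 23.7, Cdh10 at 232, 54.5 and 133, and Pcdh11x at 145, 19.5 and 40.9. Cdh3 was at 0 to 0.655 in motoneurons (median 0.0878), so it was low in both V2a cells and motoneurons.

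**Figure D4:**
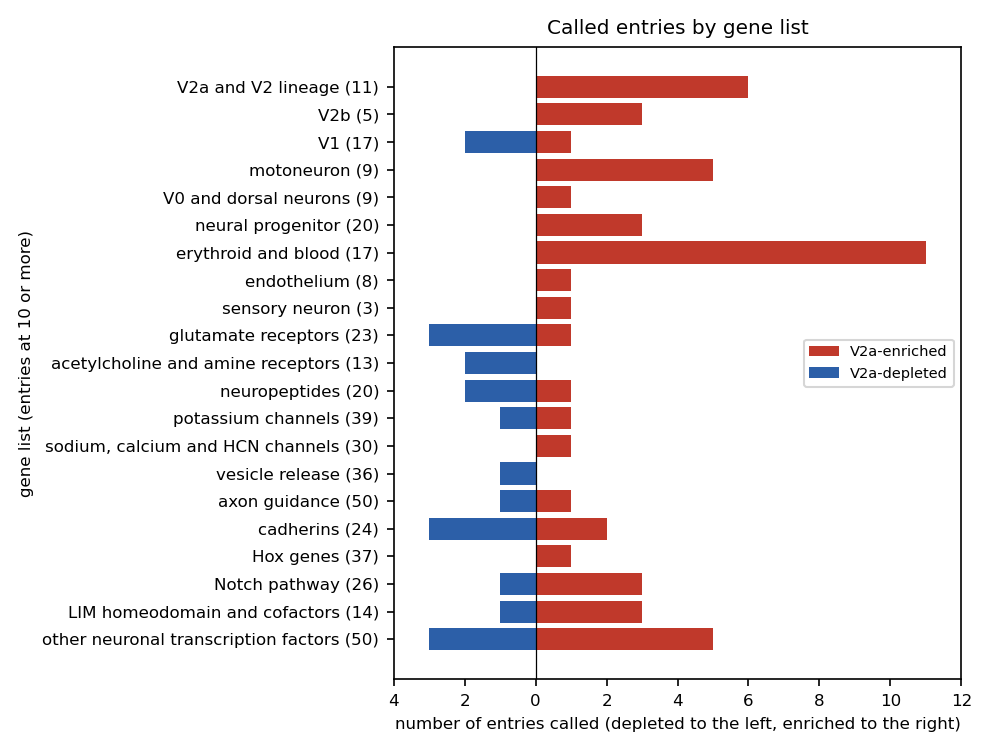
Number of entries called V2a-enriched (red, right) or V2a-depleted (blue, left) for each gene list with at least 1 call, and in parentheses the entries of the list at a signal of 10 or more in any of the 3 libraries. Of the 17 blood entries 11 were enriched, and the receptor, peptide, channel and adhesion lists had at most 3 calls in either direction.

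Genes of neurogenesis were called in both directions. Of 26 Notch pathway and proneural genes, 3 were enriched and 1 was depleted, where 1.18% and 1.06% of all entries were. Neurog2, a proneural factor, was at 138, 298 and 62.3, Neurog1 at 4.74, 16.3 and 4.83, and Dll4, a Notch ligand of V2 cells and of vessels, at 3.27, 19.2 and 3.0. The endothelial marker sum was 18.5, 229 and 147 in the same libraries, and its part in Dll4 was not tested. Neurod2 was depleted at 706, 98.3 and 198. Among 20 progenitor genes, Irx3, Dbx1 (4.89, 14.6 and 1.11) and Msx1 (1.17, 10.1 and 2.98) were enriched. The V2a value lay between V1 and V3 in 16 of these 20 and in 24 of 26 cell cycle genes. Among all 13869 entries it lay between them in 6827. The summed cell cycle signal was 1149 in V1, 2597 in V2a and 4891 in V3, and 1243 to 1537 in wild-type motoneurons. Neurog2, Neurog1 and Dll4 did not follow that order, since V3 was not the highest library for any of them.

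The depleted entries with the largest difference included predicted genes, short RNAs and near-identical copies, whose reads may be split between copies and are uncertain. One entry of Gm5643 was at 229 in V1, 0.626 in V2a and 204 in V3, but ranged from 0 to 1494 (median 172) within the 6 wild-type motoneurons. Akr1b3 was at 18.5, 0 and 56.6, with 68.6 to 163 (median 142). Sp140 was at 36.0, 0 and 42.4, and Gm5512 at 35.4, 0 and 22.9. Duxbl2 and Duxbl3 had the same values in each library (23.2, 0 and 17.3), as did the 2 entries of 4933409K07Rik (122, 2.86 and 40.7). Pcdha4-g, of the protocadherin cluster, was at 18.2, 0 and 12.9. Mirlet7i rested on 2.0 estimated reads in V1 and in V3, and AF357399 on 2.66 in each. Amd1, an enzyme of polyamine synthesis, was at 116, 14.6 and 117, and ranged from 16.5 to 211 (median 64.8) in motoneurons.

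Other depleted genes rested on more reads. Adamtsl1, a secreted matrix protein, was at 185, 12.3 and 124, with 1286, 89.0 and 843 estimated reads, and at 9.70 to 26.6 (median 14.7) in motoneurons, which spans the V2a value. Tmeff2, a transmembrane protein named after its values were seen, was at 281, 42.6 and 653, with 300.2 to 362 (median 316) in motoneurons. Nos1, neuronal nitric oxide synthase, also named after its values were seen, was at 63.5, 2.72 and 17.6, with 137 to 262 (median 177). For Nr4a2, Tmeff2 and Nos1, V2a was below V1, V3 and every motoneuron library, and for Nos1 every motoneuron library was above V1 too.

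Some of the leading enriched entries also rested on few reads. Mirlet7c-2 had a signal of 22.9 from 2.0 estimated reads, Gm12238 17.5 from 2.26 and Scarna17 17.5 from 1.27, with 0 in V1 and V3. Btg3, an antiproliferative factor, was at 28.9 in V2a and 0 in the other 2, and at 0 to 37.1 (median 0) in motoneurons. Tmem102 was at 21.8 and Cxcl17, a chemokine, at 21.4, each with 0 in V1 and V3, and motoneurons held 13.1 to 25.1 of Tmem102 (median 14.5). For a gene listed at 0 the printed difference depends on the added 1 and is no bound. Histone genes made up 8 of the 163 enriched entries and none of the 147 depleted entries. The share of histone genes among all entries was not counted. Their transcripts largely lack a poly(A) tail and their copies are near identical.

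Reads could be estimated for 152 enriched and 139 depleted entries. Fewer than 10 reads lay behind the higher value in 12 and 7 of them. The exact 95% Poisson intervals of the estimated reads, put back on the signal scale, separated V2a from both other libraries in 128 enriched and 118 depleted entries. These intervals cover counting error only. The spread among the 6 motoneuron libraries is the only replicate spread in these data for wild-type neurons. Its median SD was 0.43 log2 units for the enriched entries, 0.37 for the depleted entries and 0.23 for all 13869. The median difference of V2a from the nearer of V1 and V3 was 1.63, 1.42 and 0.13 in the same sets. The called entries were chosen for a difference of at least 1, so its size beside the spread is no support for the calls.

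Entries near the threshold were of modest size. Just inside for enrichment were A330009N23Rik (5.85, 12.8 and 5.803) and Slc8a1 (190.0, 384 and 121), and just outside were Fgf14 (110.0, 369 and 185) and Eya1 (9.38, 30.7 and 15.1). Just inside for depletion were Klf3 (94.1, 46.5 and 111) and Hmgn3 (181, 55.1 and 112), and just outside were Pvrl3 (376, 94.2 and 189) and Mia (19.9, 7.66 and 16.2). At least 4-fold differences held for 68 enriched and 33 depleted entries.

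Most called genes have a single transcript in the deposited table, 139 of the 163 enriched and 109 of the 147 depleted entries. With 2 or more transcripts at 10 or above there were 15 enriched genes, in 5 of which every such transcript passed the same 2-fold rule, and 26 depleted genes, with 8. In Nkx6-2 both transcripts were high in V2a, at 1353 and 485. In 4 enriched genes (Kcnip2, Cyp26b1, Slc8a1 and Ntng1), V2a was at or below both V1 and V3 in 1 transcript at 10 or more. For Kcnip2 and Ntng1, V2a and V1 were at 0 in that transcript. In 2 depleted genes (Rasa4 and Schip1), V2a was at or above both in 1 transcript. Transcripts in which V2a ran against the call in only 1 of the 2 comparisons were not counted. In Cyp26b1, which breaks down retinoic acid, 1 transcript was at 20.9 in V1, 0 in V2a and 17.7 in V3 and the other at 16.3, 93.4 and 0.245.

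The same rule applied to the other 2 cell types gave more calls. V1 was enriched in 477 entries (3.44%) and depleted in 558 (4.02%), and V3 was enriched in 702 (5.06%) and depleted in 270 (1.95%). Of the entries at 10 or more in either library of a pair, 11.4% differed at least 2-fold between V2a and V1, 10.5% between V2a and V3 and 17.3% between V1 and V3. V2a was thus the library with the fewest calls and the smaller pairwise differences. The single library for each type leaves no measure of how far another V2a library would move these counts.

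In the mES cells, Lhx3, Shox2 and Sox14 stood at 113, 0.506 and 0 in the sorted progenitors, while Nkx6-2 stood at 939.8, Sox21 at 348 and Sp8 at 221. Thus Nkx6-2, Sox21 and Sp8 were high both in V2a cells and in these progenitors, and Shox2 and Sox14 were not.

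Blood genes formed a separate group. Of 33 blood entries, 17 reached 10 and 11 were V2a-enriched, 9 of them globins, where 1.18% of all entries were enriched. Hbb-y, an embryonic beta-like globin, was at 82.1 in V1, 6325 in V2a and 459 in V3, and ranged from 1.32 to 678 (median 76.2) in motoneurons. Hba-x, an embryonic alpha-like globin, was at 24.5, 2272 and 268, and the higher of the 2 Hba-a1 entries at 105, 4296 and 204. Summed over 12 globin entries, the signal was 239 in V1, 16708 in V2a and 1248 in V3, and 6.97 to 1782 in motoneurons. This was 0.253% of the total V2a signal. Alas2, the first enzyme of haem synthesis in red cells, was at 7.0, 39.4 and 7.14, and Slc4a1, the red cell anion exchanger, at 0.496, 24.3 and 3.03. The erythroid regulators Gata1 and Klf1 were at 0.571 and 0.708 in V2a, and Hemgn was at 0. Without the blood list, 152 entries were enriched and 147 depleted. Globin copies are near identical, and Hbb-b2 and Hbb-bt had the same values in each library.

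Markers of vessels accompanied the blood genes. The summed signal of 10 endothelial markers was 18.5 in V1, 229 in V2a and 147 in V3, and 8.70 to 87.6 in motoneurons, and none was at 0 in V2a. Cdh5, the vascular cadherin, was at 0, 28.6 and 21.1, and Emcn, an endothelial sialomucin and the only one called, at 0.794, 26.7 and 3.94. Emcn was thus 1 of 8 endothelial entries at 10 or more, where 1.18% of all entries were enriched. Outside the list, Aplnr (0.317, 16.5 and 5.16) and Mmrn2 (2.30, 12.1 and 3.51), both vessel genes named after their values were seen, were enriched. The 11 markers of mesenchyme and meninges summed to 33.9, 277 and 1089, and the 14 of microglia and macrophages to 132, 122 and 157, with Tyrobp at 0 in V2a. Barhl2, a factor of dorsal neurons, was enriched at 3.41, 10.795 and 2.49. No gene of the floor plate, Schwann cell, microglia, mesenchyme, dissociation stress or sex-linked lists was called. These lists held 3, 3, 3, 11, 12 and 5 entries at 10 or more. Over all entries 1.18% were enriched and 1.06% depleted, so lists this short would hold few or no calls at those shares. The part of these cells in the enriched genes of low signal was not tested.

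**Figure D5:**
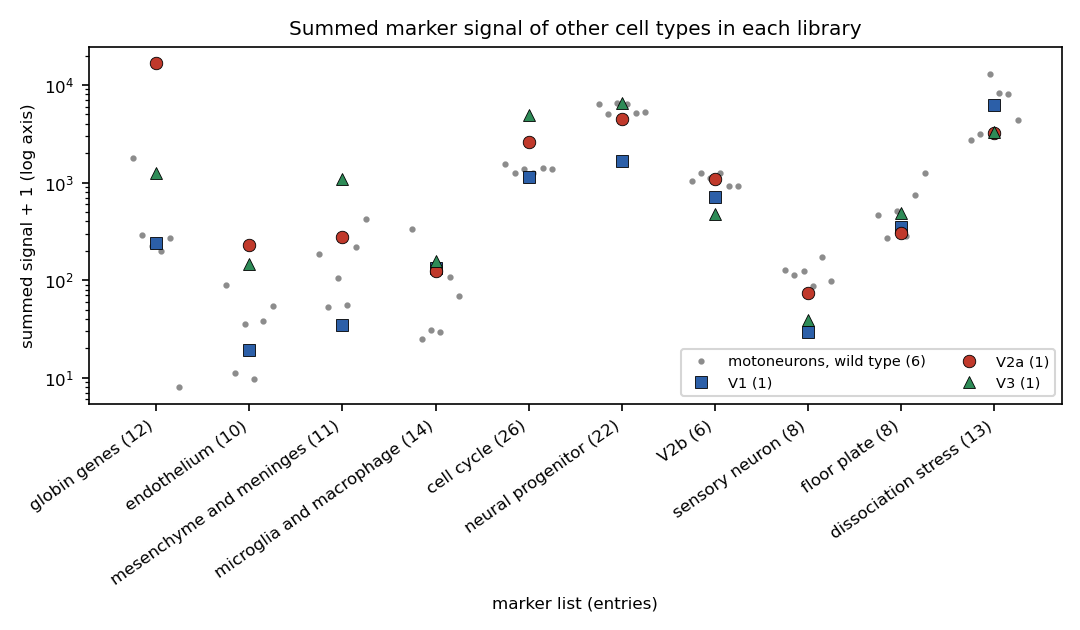
Summed signal plus 1 (log axis) of marker lists in the V1, V2a and V3 libraries (1 each, coloured) and in 6 wild-type motoneuron libraries (grey points). V2a stands above every other library for globin genes (16708) and endothelium (229), and lies between V1 and V3 for the cell cycle list (2597).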

How the data were processed

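Per the labels' protocols, sorted cells went straight into lysis buffer, oligo-dT beads picked polyadenylated RNA, and the TruSeq RNA v2 kit, which keeps no strand information, was used. The authors deposited a length-scaled signal for 23523 gene entries and 31702 transcripts with RefSeq identifiers, as read from the files. DESeq, bedtools, mm9 and mm10 appear without a role among the submitters' processing notes; the aligner is not given in the sources used here. In every library the signal's 75th percentile was 228 to 234. Multiplied by transcript length, low values were multiples of 1 constant per library (within 0.1 for 78.0% to 79.5% of them), and this constant gave the estimated reads. Coordinates came from GENCODE M21 (GRCm38, of which mm10 is the same sequence).

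With 1 library per interneuron type, no test was made. Differences are on log2(signal + 1), which understates changes of low genes. Calculations used Python 3.11 scripts, and the calling rule was checked on simulated data. Named genes are the 15 enriched and 15 depleted entries with the largest smaller difference outside the blood list, all V2 lineage markers, and up to 6 called members of each of 32 lists; others are marked in the text, and a few genes are not reported here. The members and lists were chosen with earlier results of these data known. A floor plate sample in the labels was not analysed here. Pseudocounts, folds, minimums, scalings, comparators and entry filters were varied.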

Additional observations from a re-analysis of the deposited data

Results flagged for a closer look

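For 38 sets of 6 wild-type motoneuron values, Dixon's ratio was taken on the signal and not on its log2. The highest or lowest library passed the 95% critical value in 6 sets. About 1 in 20 sets would be flagged if their values were normal and the sets independent. Some of these values are low and skewed, and all sets come from the same libraries, so that rate may not hold here. In 5 of the 6 flagged sets, wild-type motoneuron replicate 1 was the highest library. Its signal was 30.6 for Shox2 (next library 3.97), 17.3 for Sox14 (next 4.80), 5.61 for Nkx6-3 (next 1.89), 20.1 for Gata3 (next 3.53) and 678 for Hbb-y (next 119). These are V2a, V2b and globin genes, and the V2a library held 3975 and 2190.1 of Shox2 and Sox14. The part of interneurons or blood in that library was not tested. Lhx4 was lowest in replicate 5, at 415 (next 581).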

How the results depend on the processing

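The 163 enriched and 147 depleted entries depend on the comparator, the fold and the minimum signal. A fold of 1.5 gave 337 and 354, a fold of 3 gave 87 and 58, and a fold of 4 gave 68 and 33. Any signal above 0 gave 440 and 372, and a minimum of 50 gave 98 and 65. A pseudocount of 10 left 118 enriched and 76 depleted entries, and one of 0.1 gave 174 and 160. With V1 as the only comparator the counts were 774 and 755, and with V3 only 478 and 946. Accepting depleted entries when the higher of V1 and V3 reached 10 gave 185. Scaling to the same total gave 155 and 159, to the same total without blood genes 155 and 157, and by median of ratios 163 and 148; the transcript table gave the same counts. Chosen after seeing the data, a minimum of 10 estimated reads left 140 and 132, 1 entry per symbol 161 and 143, and entries of at least 300 bases 145 and 137. The difference of 30 of the 85 named entries moved by more than the motoneuron SD at a pseudocount of 10 and that of 16 at 0.1. With V1 as the only comparator 24 moved, with V3 only 18, and with each scaling 3. Most of the other settings cannot change a sign. No paired analysis was possible because each interneuron type has 1 library and no test was made. The estimated depth of about 16.3 M to 17.5 M reads limits calls in short transcripts.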
